A study of Mus musculus with 11 samples.

Results

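The genes described here encode enzymes that break down amino acids in the kidney tubule. They were chosen by name: a list of 53 gene symbols, each matched to the probe set that carries that symbol alone and, where a gene had several such probe sets, to the one with the highest mean over all arrays. Of the 53 genes, 52 were matched, out of 22180 genes measured in this way, and Tdh, the threonine dehydrogenase gene, was not analysed here. RNA of S3 tubules, the straight end of the kidney proximal tubule, came from 129/SvEv mice and was put on 5 arrays for THP -/- and 6 arrays for WT. THP is Tamm-Horsfall protein, or uromodulin, a product of the Umod gene made mainly by the neighbouring thick ascending limb, and the design asks how S3 tubules differ when it is missing. Batch 1 held 3 THP -/- and 5 WT arrays and batch 2 held 2 THP -/- and 1 WT array. No treatment is named. The way the allele was made, and the age and sex of the mice, are not given in the sources used here, nor is it stated that each array is a separate mouse, so p-values measure the spread between arrays, which may be partly technical.

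Proximal tubule cells take up most filtered amino acids and use them for fuel, for gluconeogenesis and for products such as creatine, arginine and serine. Several of the routes end in mitochondria. The branched-chain amino acids leucine, isoleucine and valine share an aminotransferase and a dehydrogenase complex before their paths part, and the later steps yield acetyl-CoA or propionyl-CoA. Glycine and serine exchange carbon with the folate pool, tyrosine ends in fumarate and acetoacetate, and tryptophan runs through kynurenine towards nicotinamide nucleotides. Many of these enzymes are shared with the liver.

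All values below are log2 signals of a probe set, or differences between such signals, THP -/- minus WT with batch as a term. A difference of 1 is a doubling. Array medians lay between 3.85 and 4.01 and correlations between arrays between 0.901 and 0.955. Precision is limited by how few arrays there are. Umod, which checks the genotype labels, read 3.68, 4.26, 4.67, 4.55 and 5.27 in THP -/- replicates 1 to 5, against a lowest of 5.27, a median of 5.67 and a highest of 6.74 in WT arrays. The groups met at 5.27, and the limma adjusted p was 0.281. The sources used here do not say whether its probe set lies in the deleted part. All 9 measured markers of the proximal tubule as a whole were above the array median on every array. So were 7 of 9 S3 markers and 9 of 10 markers of the earlier S1 and S2 segments. The same held for 7 of 9 thick ascending limb and 4 of 6 collecting duct markers, so this measure does not tell the segments apart. Xist was at 2.35 to 2.96 in THP -/- and 2.39 to 2.88 in WT arrays.

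No amino acid catabolism gene passed the test. limma with Benjamini-Hochberg adjustment over all 41345 probe sets called 0 of the 52 genes at 0.05, as it did for 0.0% of all probe sets, and the adjusted p of the genes ran from 0.357 to 0.999. The median log2 difference was 0.03, beside 0.01 over one probe set per gene, and 27 genes had a difference above 0 and 25 below. At an unadjusted p under 0.05 there were 8 genes (15.4%), beside 5.64% of all genes and 6.16% of all probe sets. With dim probe sets left out, 1491 of 21057 were under that p, and 49 of the 52 genes were above the array median on every array. The list was chosen with earlier results of these data known, and the difference in share was not tested. Over all probe sets 50.4% of differences were above 0, and 51.9% of the 52 genes were. Of these 8, Haao, Kmo, Arg2, Asl and Acad8 were higher in THP -/- arrays (5 genes, beside 3.64% of all genes and 3.4% of all probe sets) and Thnsl2, Shmt1 and Gldc were lower (3 genes, beside 2.0% of all genes and 2.76% of all probe sets). The count of 5 was 3 without WT replicate 5 or THP -/- replicate 4 and 2 without WT replicate 6 or THP -/- replicates 1 or 3, and the count of 3 was 6 without WT replicate 5 and 5 without WT replicate 6 or THP -/- replicate 5. Over all 41345 probe sets, 2546 were under that p in the main fit. In the fits just named they ran from 2096 without THP -/- replicate 3 to 2898 without THP -/- replicate 5. Exact two-sided permutation tests of genotype within batches gave the 8 genes an unadjusted p of 0.00595 to 0.0476. They were singled out for a small p on these arrays, so this is no separate evidence. In 46 of the 52 genes the 95% interval of the difference lay within -1 and 1, and the exceptions were Gldc, Thnsl2, Hpd, Afmid, Prodh2 and Arg2.

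**Figure D1:**
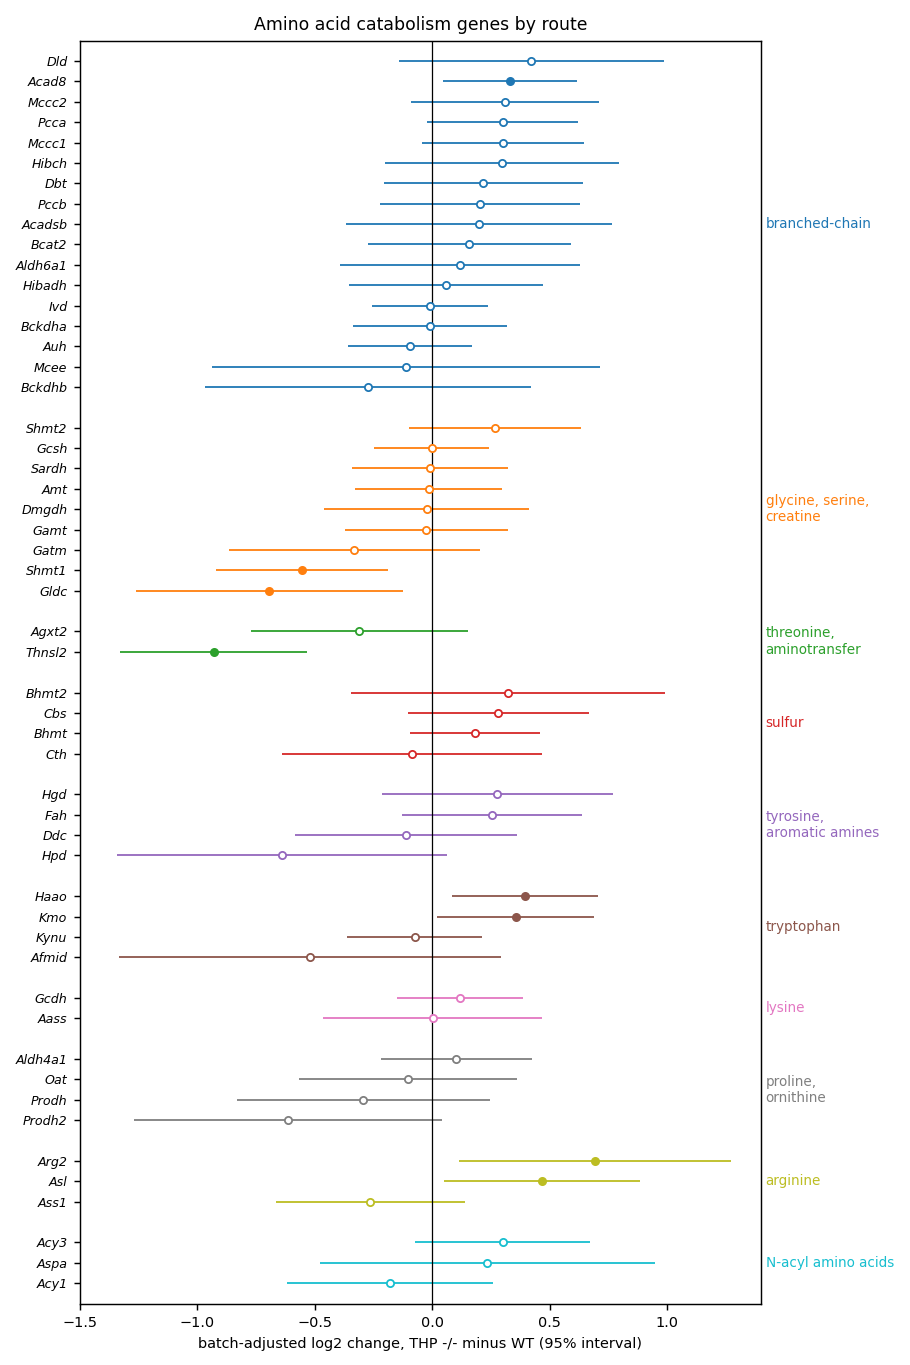
The horizontal axis gives the batch-adjusted log2 difference, THP -/- minus WT, of 52 amino acid catabolism genes, with 95% intervals as bars and the genes grouped and coloured by route. Filled points mark the 8 genes at an unadjusted p under 0.05; Thnsl2 lies farthest from 0, at -0.93, and Arg2 has the highest value, 0.69.

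Thnsl2 had the largest difference and the smallest p of the 52 genes. It encodes a threonine synthase-like enzyme, which in mice acts on phosphorylated threonine and releases its phosphate. Thnsl2 read 5.97, 6.40, 6.10, 6.43 and 6.80 in THP -/- replicates 1 to 5, against a lowest of 6.91, a median of 7.15 and a highest of 7.68 in WT arrays. Every THP -/- array was below every WT array, with THP -/- replicate 5 closest to the WT range. Groups that did not overlap were seen for 2 of the 52 genes (3.85%), Thnsl2 and Haao, beside 0.627% of all genes and 0.597% of all probe sets. The means of Thnsl2 were 6.34 ± 0.323 (SD, n = 5) in THP -/- and 7.22 ± 0.279 (SD, n = 6) in WT arrays. The fitted log2 difference was -0.93 ± 0.18 (SE), a 1.91-fold lower signal in THP -/- arrays, with a 95% interval from -1.33 to -0.53. The limma adjusted p was 0.357, so the gene did not pass. The difference was -1.08 within batch 1 and -0.51 within batch 2, and it lay between -1.08 and -0.84 when each array was left out in turn.

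The mitochondrial aminotransferase Agxt2, which breaks down beta-aminoisobutyrate and dimethylarginines, shares with Thnsl2 the group of threonine and aminotransfer enzymes. Agxt2 read 5.71, 5.95, 6.11, 6.09 and 6.26 in THP -/- arrays, against a lowest of 5.57, a median of 6.30 and a highest of 6.84 in WT arrays. The groups overlapped, and all THP -/- arrays were below the WT median. Its log2 difference was -0.31 ± 0.21 (SE; limma adjusted p = 0.847), and -0.20 without WT replicate 3.

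Because Thnsl2 and Haao are the members whose groups did not overlap, the 250 bases before each gene's start are shown, 5′ to 3′ on the gene's strand, from RefSeq on GRCm38.p6. The Thnsl2 stretch is chr6:71144381-71144630 and the Haao stretch chr17:83846791-83847040, both on the minus strand. Capitals mark a match, on either strand, to GTTAAT, a half-site of the proximal tubule factor HNF1, or to CAAAGTCCA, a core of HNF4A sites, and these letters do not overlap each other.
Thnsl2: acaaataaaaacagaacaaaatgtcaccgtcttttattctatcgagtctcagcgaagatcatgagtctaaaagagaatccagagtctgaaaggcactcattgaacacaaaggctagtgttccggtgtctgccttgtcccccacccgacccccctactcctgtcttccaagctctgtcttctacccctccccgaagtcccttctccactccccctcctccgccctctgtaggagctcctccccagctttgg
Haao: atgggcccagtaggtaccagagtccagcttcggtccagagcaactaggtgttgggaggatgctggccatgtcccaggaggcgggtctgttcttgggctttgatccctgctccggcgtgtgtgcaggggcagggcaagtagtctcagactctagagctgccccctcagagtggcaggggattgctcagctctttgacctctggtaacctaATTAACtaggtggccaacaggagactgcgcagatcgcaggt
The Haao stretch holds the half-site, read on the opposite strand, and the Thnsl2 stretch holds neither motif. Of the 52 genes, 47 had a stretch in the table. The HNF1 half-site was in 3 of them (6.38%), Bckdhb, Haao and Prodh2, beside 7.49% of 27025 genes. The HNF4A core was in 1 (2.13%), Agxt2, beside 0.451% of those genes. The motifs were settled on after both stretches had been seen, no others were searched, and a match is a description of letters only.

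Tryptophan enzymes held 2 of the 5 genes with higher signal in THP -/- arrays at an unadjusted p under 0.05. These were 2 of the 4 genes of the route (50.0%), beside 5.64% of all genes at that p. The route is small, and the difference in share was not tested. Haao, the hydroxyanthranilate dioxygenase that makes the precursor of quinolinate, read 8.48, 8.32, 8.55, 8.56 and 8.27 in THP -/- arrays, against a lowest of 7.71, a median of 8.12 and a highest of 8.26 in WT arrays. The groups did not overlap, but only 0.01 separated THP -/- replicate 5 from WT replicates 1, 2 and 3. The log2 difference of Haao was 0.40 ± 0.14 (SE), 1.32-fold, with a 95% interval from 0.08 to 0.71 and a limma adjusted p of 0.758. It was 0.38 within batch 1 and 0.43 within batch 2.

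Kmo, the kynurenine monooxygenase that acts upstream of Haao, read 5.46, 5.52, 5.82, 6.25 and 5.85 in THP -/- arrays, against a lowest of 4.82, a median of 5.30 and a highest of 5.72 in WT arrays. THP -/- replicates 3, 4 and 5 were above all WT arrays, and replicates 1 and 2 were inside the WT range. Its log2 difference was 0.36 ± 0.15 (SE; limma adjusted p = 0.790). Afmid, the formamidase that releases kynurenine, had the opposite sign and a wide spread. It read 7.65, 5.93, 7.37, 7.59 and 8.08 in THP -/- arrays, against a lowest of 6.80, a median of 7.85 and a highest of 8.30 in WT arrays. The low values were those of THP -/- replicate 2 and WT replicate 5, and the log2 difference of -0.52 ± 0.37 (SE; limma adjusted p = 0.856) was -0.77 within batch 1 and 0.19 within batch 2, and -0.11 without THP -/- replicate 2. Kynu, the kynureninase between Kmo and Haao, was below the array median on all 11 arrays, and its difference was -0.07 ± 0.13 (SE). The route as a whole had 2 genes above 0 and 2 below, with a median of 0.14, which was 0.36 with dim probe sets, Kynu among them, left out.

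Among the glycine, serine and creatine enzymes, 8 of 9 genes had a difference below 0, but 5 of these 8 lay between -0.02 and -0.002, and the median was -0.02, which ran from -0.096 without THP -/- replicate 3 to 0.031 without THP -/- replicate 5 when single arrays were left out. Shmt1, the cytosolic serine hydroxymethyltransferase, read 3.99, 4.17, 4.31, 4.33 and 4.55 in THP -/- arrays, against a lowest of 4.55, a median of 4.70 and a highest of 5.34 in WT arrays. The groups met at 4.55, the value of THP -/- replicate 5 and WT replicate 1. Its log2 difference was -0.56 ± 0.17 (SE), 1.47-fold lower, with a 95% interval from -0.92 to -0.19 and a limma adjusted p of 0.674. Shmt1 was above the array median on all 11 arrays, but its signal was dim. THP -/- replicate 1 read 3.99 beside an array median of 3.97. Shmt2, the mitochondrial form of the same enzyme, had the opposite sign, 0.27 ± 0.17 (SE; limma adjusted p = 0.841). It read 7.13, 6.57, 7.12, 7.04 and 7.28 in THP -/- arrays, against a lowest of 6.38, a median of 6.74 and a highest of 7.08 in WT arrays.

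Gldc, the decarboxylase of the glycine cleavage system, read 4.28, 3.21, 3.56, 4.45 and 4.13 in THP -/- arrays, against a lowest of 3.94, a median of 4.51 and a highest of 5.07 in WT arrays. All THP -/- arrays were below the WT median, with THP -/- replicates 2 and 3 below the whole WT range. The log2 difference of -0.69 ± 0.26 (SE; limma adjusted p = 0.761) was -0.87 within batch 1 and -0.19 within batch 2. Of the partners of Gldc in the same complex, the aminomethyltransferase Amt and the lipoyl carrier Gcsh had differences of -0.02 ± 0.14 and -0.002 ± 0.11 (SE). Dld, a further partner that also serves the branched-chain dehydrogenase complex, had 0.42 ± 0.26 (SE). Gldc and Gatm were above the array median on 8 of the 11 arrays, so part of their values are dim. Gatm, which starts creatine synthesis by joining arginine and glycine, had a difference of -0.33 ± 0.24, and Gamt, which completes it, -0.02 ± 0.16 (SE). Dmgdh and Sardh, the mitochondrial dehydrogenases that turn dimethylglycine into sarcosine and sarcosine into glycine, had differences of -0.02 ± 0.20 and -0.009 ± 0.15 (SE).

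**Figure D2:**
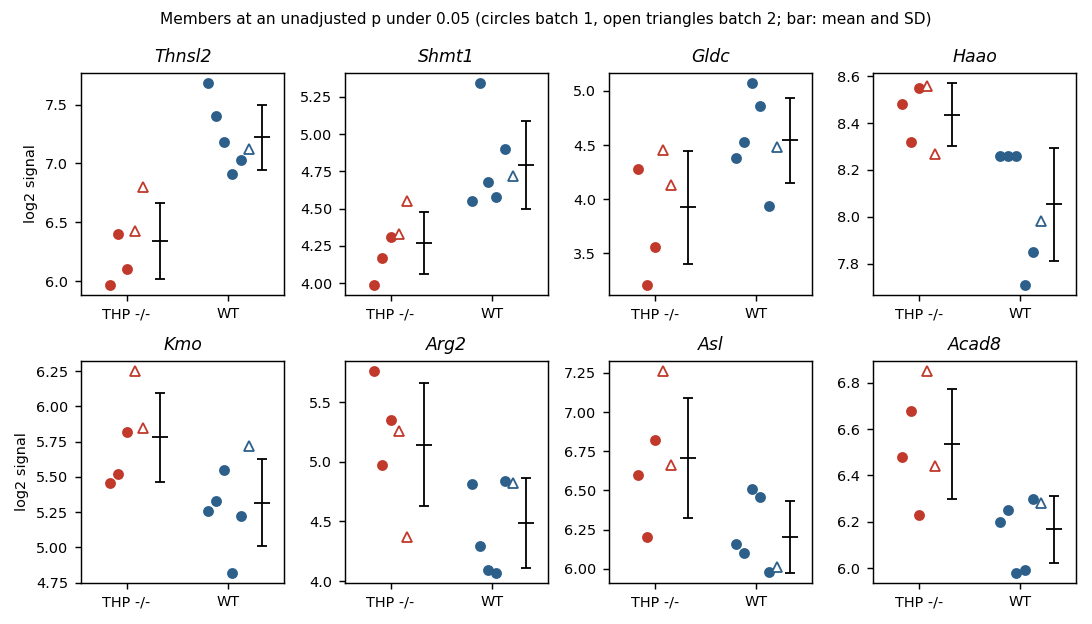
Each panel gives the log2 signal of 1 gene on every array, THP -/- left and WT right, with circles for batch 1, open triangles for batch 2 and the mean with its SD beside the points. Thnsl2 and Haao show no overlap between the groups, with Haao apart by 0.01, and the other 6 genes touch or overlap.

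Of the arginine enzymes, Arg2 and Asl had higher signal in THP -/- arrays at an unadjusted p under 0.05, and Ass1 did not. These were 2 of 3 genes (66.7%), beside 5.64% of all genes at that p. The difference in share was not tested in so small a route. Argininosuccinate synthase, Ass1, and argininosuccinate lyase, Asl, make arginine from citrulline, a main task of the renal proximal tubule, and the mitochondrial arginase Arg2 splits it into ornithine and urea. Arg2 read 5.76, 4.97, 5.35, 5.26 and 4.37 in THP -/- arrays, against a lowest of 4.07, a median of 4.55 and a highest of 4.84 in WT arrays. The first 4 THP -/- replicates were above the WT range, and replicate 5 was inside it. Its log2 difference was 0.69 ± 0.26 (SE), 1.62-fold, with a 95% interval from 0.11 to 1.27 and a limma adjusted p of 0.769. The difference of Arg2 was 0.94 within batch 1 and -0.005 within batch 2, and it was the only 1 of the 8 genes whose batches differed in sign. Arg2 was above the array median on all 11 arrays, but part of its values are dim. WT replicates 3 and 4 read 4.09 and 4.07, beside array medians of 3.96 and 3.99.

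Asl read 6.60, 6.20, 6.82, 7.26 and 6.66 in THP -/- arrays, against a lowest of 5.98, a median of 6.13 and a highest of 6.51 in WT arrays. Only THP -/- replicate 2 was inside the WT range. The log2 difference was 0.47 ± 0.19 (SE; limma adjusted p = 0.774), with 0.30 within batch 1 and 0.95 within batch 2. Without WT replicate 6, the only WT array of batch 2, the fit rests on batch 1 alone and gives the same 0.30. Ass1, the partner of Asl, read 4.95, 4.07, 5.06, 4.58 and 5.06 in THP -/- arrays, against a lowest of 4.94, a median of 4.94 and a highest of 5.12 in WT arrays. The THP -/- replicates 2 and 4 were low and the other 3 were inside the narrow WT range, and the difference was -0.26 ± 0.18 (SE; limma adjusted p = 0.852), and -0.047 without THP -/- replicate 2.

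Branched-chain enzymes were the largest group, with 17 genes, of which 12 had a difference above 0 and 5 below. Their median was 0.20, beside 0.01 over all genes and a share above 0 of 53.4% over all genes. The median was 0.086 without THP -/- replicate 3, 0.11 without WT replicate 5, 0.13 without THP -/- replicate 4 and 0.073 without THP -/- replicate 4 and WT replicate 4. 1 of the 17 genes, Acad8, had an unadjusted p under 0.05 (5.88%, beside 5.64% of all genes). Acad8, the isobutyryl-CoA dehydrogenase of valine breakdown, read 6.48, 6.68, 6.23, 6.85 and 6.44 in THP -/- arrays, against a lowest of 5.98, a median of 6.23 and a highest of 6.30 in WT arrays. Only THP -/- replicate 3 was inside the WT range. Its log2 difference was 0.33 ± 0.13 (SE; limma adjusted p = 0.774), 1.26-fold, with 0.32 within batch 1 and 0.36 within batch 2.

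The carboxylases of the later steps had differences above 0. Pcca, the biotin-carrying subunit of propionyl-CoA carboxylase, read 6.07, 6.13, 6.29, 6.91 and 6.20 in THP -/- arrays, against a lowest of 5.67, a median of 5.93 and a highest of 6.13 in WT arrays. Its log2 difference was 0.30 ± 0.15 (SE; limma adjusted p = 0.823), and the other subunit, Pccb, had 0.20 ± 0.19. Mccc1 and Mccc2, the subunits of methylcrotonyl-CoA carboxylase in leucine breakdown, had differences of 0.30 ± 0.16 and 0.31 ± 0.18 (SE; limma adjusted p = 0.825 and 0.830). Mccc1 read 5.41, 5.13, 5.60, 6.30 and 6.06 in THP -/- arrays, against a lowest of 4.92, a median of 5.29 and a highest of 5.60 in WT arrays, and the 2 arrays above the WT range were those of batch 2.

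The shared entry steps of the branched-chain route had differences of both signs. Bcat2, the mitochondrial aminotransferase, had a log2 difference of 0.16 ± 0.20 (SE). Of the subunits of the dehydrogenase complex, Bckdha had -0.01 ± 0.15, Bckdhb -0.27 ± 0.32, Dbt 0.22 ± 0.19 and Dld 0.42 ± 0.26 (SE). Bckdhb had the widest spread of all 52 genes within genotypes, an SD of 0.787 beside a median of 0.315, and read 4.67, 4.11, 5.50, 6.88 and 6.10 in THP -/- arrays, against a lowest of 4.95, a median of 5.42 and a highest of 5.84 in WT arrays. Its difference was -0.60 within batch 1 and 0.65 within batch 2. Ivd, the isovaleryl-CoA dehydrogenase of leucine breakdown, had the narrowest spread, an SD of 0.135, and a difference of -0.009 ± 0.11 (SE), with a 95% interval inside -0.5 and 0.5. The other leucine, isoleucine and valine enzymes, Auh, Acadsb, Hibch, Hibadh, Aldh6a1 and Mcee, had differences between -0.11 and 0.30, with limma adjusted p of 0.861 or higher. A second, dimmer probe set of Aldh6a1 had a difference of -0.71 (limma adjusted p = 0.854), opposite in sign to the 0.12 of the probe set used.

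Tyrosine enzymes had 2 differences above 0 and 2 below. Hpd, the hydroxyphenylpyruvate dioxygenase that starts ring breakdown, read 7.67, 7.55, 7.86, 7.71 and 8.33 in THP -/- arrays, against a lowest of 7.62, a median of 8.44 and a highest of 9.47 in WT arrays. All THP -/- arrays were below the WT median, and WT replicates 4, 5 and 6 were inside the THP -/- range. The log2 difference of -0.64 ± 0.32 (SE; limma adjusted p = 0.823) was -0.83 within batch 1 and -0.10 within batch 2. The next enzymes had the opposite sign, Hgd, the homogentisate dioxygenase, with 0.28 ± 0.22 and Fah, the fumarylacetoacetate hydrolase, with 0.25 ± 0.17 (SE; limma adjusted p = 0.869 and 0.850). Without THP -/- replicate 3 they were 0.15 for both genes, and Hgd was 0.14 without WT replicate 4. Ddc, the decarboxylase with which the proximal tubule makes dopamine, had -0.11 ± 0.21 (SE).

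Proline and hydroxyproline enzymes had 3 of 4 differences below 0. Prodh2, the hydroxyproline dehydrogenase, read 5.79, 5.24, 4.79, 5.98 and 6.21 in THP -/- arrays, against a lowest of 5.29, a median of 6.17 and a highest of 6.68 in WT arrays. The log2 difference of -0.62 ± 0.30 (SE; limma adjusted p = 0.823) was -0.88 within batch 1 and 0.14 within batch 2, and -0.39 without THP -/- replicate 3. Prodh, the proline dehydrogenase, had -0.29 ± 0.25, and it too differed in sign between the batches, with -0.45 within batch 1 and 0.16 within batch 2. Prodh was -0.088 without THP -/- replicate 2 and -0.17 without WT replicate 3. Without WT replicate 6, the only WT array of batch 2, the fit gives the batch 1 value of -0.45 again. Aldh4a1, the next enzyme of both routes, had 0.10 ± 0.15, and the ornithine aminotransferase Oat -0.10 ± 0.21 (SE).

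Sulfur, lysine and N-acyl amino acid enzymes held no gene at an unadjusted p under 0.05. Cbs and Cth, which carry sulfur from homocysteine to cysteine, had log2 differences of 0.28 ± 0.18 and -0.08 ± 0.25 (SE). Bhmt and Bhmt2, the methyltransferases that turn homocysteine back to methionine, had 0.18 ± 0.13 and 0.32 ± 0.30 (SE). Bhmt was 0.081 without THP -/- replicate 2, and Bhmt2 was 0.16 without WT replicate 4, 0.19 without THP -/- replicate 3 and 0.22 without THP -/- replicate 4. These paralogs and Dmgdh, which acts on the dimethylglycine made by Bhmt, are direct neighbours in RefSeq on GRCm38.p6, with 0 protein-coding genes between Bhmt and Bhmt2 and 0 between Bhmt2 and Dmgdh. Because Bhmt and Bhmt2 are alike in sequence, shared probe signal cannot be told apart here. The lysine enzymes Gcdh and Aass had 0.12 ± 0.12 and 0.003 ± 0.21 (SE). The aminoacylases Acy1 and Acy3 had -0.18 ± 0.20 and 0.30 ± 0.17, and Aspa, which splits acetylaspartate, had 0.23 ± 0.32 (SE). Acy3 was 0.19 without THP -/- replicate 3, Acy1 was -0.052 without THP -/- replicate 1, and Aspa was -0.090 without THP -/- replicate 3. Acy3 read 10.89, 10.59, 11.25, 10.80 and 10.61 in THP -/- arrays, against a lowest of 10.32, a median of 10.49 and a highest of 11.03 in WT arrays, and the groups overlapped.

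Other genes of the same routes, 93 symbols of which 78 were measured, gave 0 calls with limma at an adjusted p of 0.05. At an unadjusted p under 0.05 there were 5 of 78 (6.41%, beside 5.64% of all genes), and 47 differences were above 0 and 31 below, with a median of 0.04. Of these 5 genes 3 were in the branched-chain list, which also covers the fate of the products of that route. They were 3 of 13 measured (23.1%), beside 5.64% of all genes, and the difference in share was not tested. Acat1, the mitochondrial thiolase of isoleucine and ketone breakdown, averaged 8.71 ± 0.261 (SD, n = 5) in THP -/- and 8.24 ± 0.258 (SD, n = 6) in WT arrays, with a log2 difference of 0.42 ± 0.16 (SE; limma adjusted p = 0.761). Mmab, which makes the cobalamin cofactor of methylmalonyl-CoA mutase, had 0.42 ± 0.19 (0.24 without THP -/- replicate 1), and the peroxisomal enzyme Ehhadh 0.54 ± 0.24 (SE; limma adjusted p = 0.799 and 0.803). Dao, the D-amino acid oxidase of the S3 segment, had 0.41 ± 0.16 (SE; limma adjusted p = 0.774). Tdo2, the tryptophan dioxygenase, had -0.26 ± 0.10, but was below the array median on every array.

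Single arrays were at the low or high end for many of the 52 genes. THP -/- replicate 2 was the lowest THP -/- array for 23 genes and THP -/- replicate 4 the highest for 23. Among WT arrays, replicate 5 was the lowest for 22 genes and replicate 4 for 21. For 16 genes THP -/- replicate 2 and WT replicate 5 were each the lowest array of their genotype. Among them were Afmid, Gldc, Gatm, Hpd and Prodh, with a difference below 0. Asl, Shmt2, Acy3 and Aspa, with a difference above 0, were also among them. The same count over all genes was not made. The difference had the same sign in both batches for 34 of the 52 genes and not for 18.

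**Figure D3:**
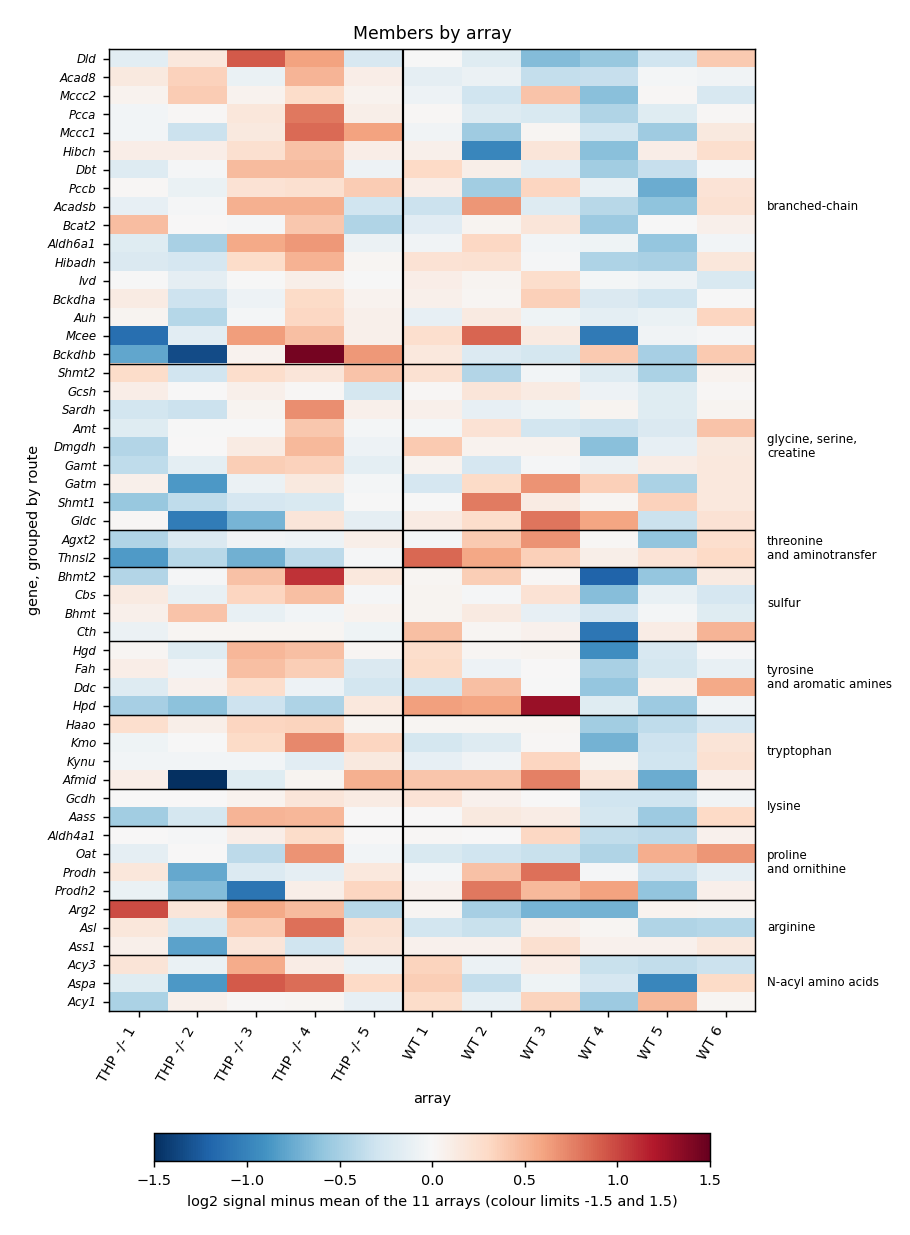
Rows are the 52 genes grouped by route, columns the 5 THP -/- and 6 WT arrays, and colour is the log2 signal minus the gene's mean over the 11 arrays, with values beyond 1.5 in either direction shown at the end colour. The columns of THP -/- replicate 2 and WT replicates 4 and 5 are mostly blue and that of THP -/- replicate 4 mostly red.

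Markers of the tubule segments also differed between these arrays. The mean log2 signal of 10 genes of the S1 and S2 segments, the earlier parts of the proximal tubule, ran from 5.52 to 6.90 in THP -/- and from 5.83 to 6.96 in WT arrays, and THP -/- replicate 2 (5.52) and WT replicate 5 (5.83) were the lowest of their groups. Of these 10 markers 9 had a log2 difference below 0, with a median of -0.28, and none passed (limma). At an unadjusted p under 0.05 there were 2 of them (20.0%), beside 5.64% of all genes. The 9 measured S3 markers averaged 7.84 ± 0.430 (SD, n = 5) in THP -/- and 7.41 ± 0.405 (SD, n = 6) in WT arrays. All 9 S3 markers had a difference above 0, with a median of 0.43, but Slc5a1 (0.009) and Ddah1 (0.01) were near 0. At an unadjusted p under 0.05 there were 2 of them (22.2%). Within batch 2 Slc5a1, Slc22a13, Slc7a12 and Ddah1 were below 0 and the rest above. The S3 means of single arrays ran from 7.33 to 8.35 in THP -/- and from 6.69 to 7.84 in WT arrays. WT replicate 4 had the lowest S3 mean, 6.69. The thick ascending limb list was highest in THP -/- replicate 4, at 7.04, and ran from 5.41 to 5.93 in the other THP -/- arrays and from 5.22 to 6.0 in WT arrays. Of its 9 genes 8 had a difference above 0, with a median of 0.41, and Umod was the exception. THP -/- replicate 4 also stood apart in the other distal lists. Its collecting duct mean was 6.31, against 4.61 to 5.11 in the other THP -/- arrays and 4.78 to 5.51 in WT arrays. Its mean for the distal convoluted and connecting tubule was 5.51, against 3.93 to 4.72 in the other THP -/- arrays and 3.84 to 4.42 in WT arrays. Its intercalated cell mean was 4.81, against 3.90 to 4.02 in the other THP -/- arrays and 3.69 to 4.22 in WT arrays. This is the array that was the highest THP -/- array for 23 of the 52 genes. It was also the highest array for the endothelium list, at 5.05, and the stroma list, at 4.41, and the leukocyte list ran from 3.96 to 4.25 in THP -/- and from 3.92 to 4.25 in WT arrays. Fewer cells of a type and less RNA per cell cannot be told apart in such samples, and the part of segment make-up in the differences above was not tested. Without THP -/- replicate 2 and WT replicate 5, chosen after seeing the data, 3 genes were higher and 3 lower at an unadjusted p under 0.05. Over all 41345 probe sets 2630 were under that p in this fit. Without THP -/- replicate 4 and WT replicate 4 the counts were 2 and 3, beside 2167 of all probe sets.

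**Figure D4:**
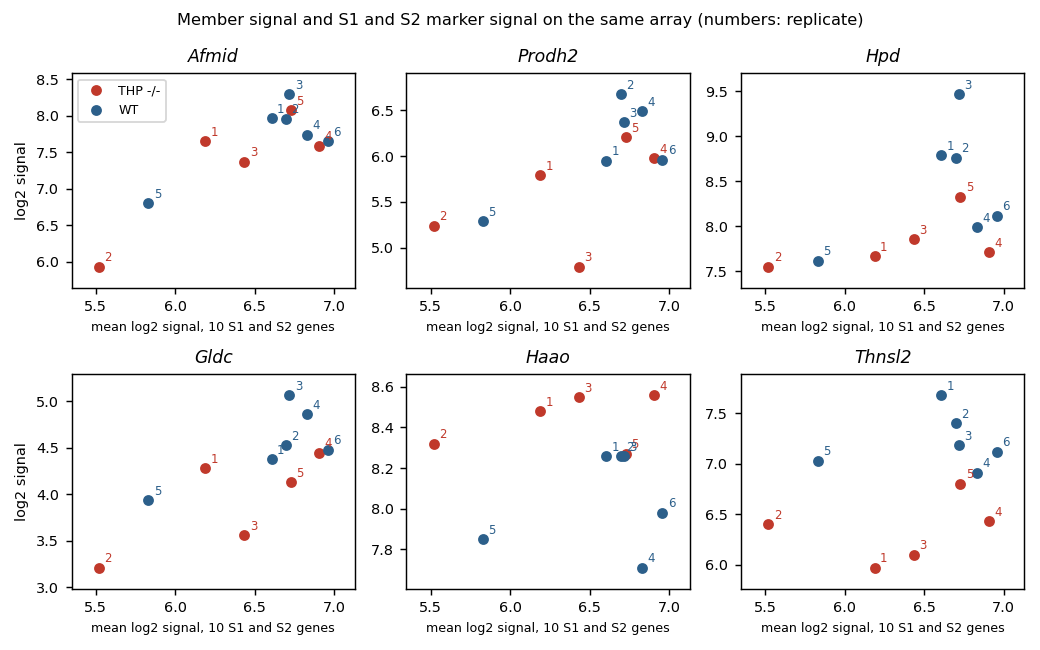
Each panel sets the log2 signal of 1 gene against the mean log2 signal of 10 S1 and S2 marker genes on the same array, with THP -/- arrays in red, WT arrays in blue and the replicate number beside each point. Afmid is lowest on the 2 arrays with the lowest marker mean, THP -/- replicate 2 and WT replicate 5, and in Thnsl2 every THP -/- point is below every WT point.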

How the data were processed

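Per the labels' protocols, RNA was extracted with the Arcturus PicoPure kit and labelled with the Affymetrix WT Pico kit. The deposited values are log2 signals per probe set, made by the authors with Partek 6.6 and RMA per the submitters' processing notes. RMA brings arrays to a like distribution, which can shrink a shift shared by most genes. The sources used here name no batch correction or filter before deposit. Of 41345 probe sets 23521 carried 1 symbol. limma 3.58.1 in R 4.3.3 fitted genotype and batch on all probe sets (8 residual degrees of freedom, prior 2.9, two-sided, Benjamini-Hochberg over all probe sets, threshold 0.05), after a check on simulated data. Exact permutation used the 168 arrangements of genotype within batches, whose smallest p is 0.00595. The members, lists and tests were chosen with earlier results of these data known. Genes named by rule were, in each route, the 3 with the smallest p, plus any with an unadjusted p under 0.05 or groups that did not overlap. Array readings were given for only part of these, and also for Bckdhb, which the rule does not name. Other pathway genes were named at an unadjusted p under 0.05, at most 3 per route. Values given for the remaining members were added after they were seen. Alternatives covered the batch term, the threshold, the replicate number as a block, normalization, array weights, the prior, a filter on dim probe sets, probe set choice and each array left out. Same-numbered arrays did not deviate together (correlations from -0.181 to 0.012, batch not removed), so no sign of pairing by number was seen. Some same-numbered arrays lie in different batches, so this check cannot exclude a pairing. Plots used matplotlib 3.10.9.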

Additional observations from a re-analysis of the deposited data

Results flagged for a closer look

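A single array stood apart from the rest of its genotype in 5 of 116 sets of values tested (4.31%), where chance gives about 1 in 20. Pcca was highest in THP -/- replicate 4, at 6.91, with the next at 6.29. Gatm was lowest in THP -/- replicate 2, at 3.22, with the next at 3.99. Gcsh was lowest in THP -/- replicate 5, at 5.48, with the next at 5.75. WT replicate 4 was lowest for Cth, at 5.29 with the next at 6.40, and for Ehhadh, at 6.57 with the next at 7.27.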

How the results depend on the processing

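No gene of the 52 passed an adjusted p of 0.05 with limma under any alternative, nor 0.1 or 0.2 in the analysis as reported, and the smallest adjusted p of Thnsl2, 0.158, came with 1 probe set per gene. At an unadjusted p under 0.05, the 5 genes higher in THP -/- became 2 in batch 1 alone, 3 after quantile normalization, 3 without THP -/- replicate 2 and WT replicate 5 and 2 without THP -/- replicate 4 and WT replicate 4, and ran from 2 to 7 with single arrays left out. The 3 lower genes became 5 after quantile normalization and ran from 2 to 6. Over all 41345 probe sets, 2546 were under that p as reported, 2367 in batch 1 alone and 2609 after quantile normalization. With single arrays left out this number ran from 2096 to 3016. Under a replicate block, although no sign of pairing by number was seen, the counts were 1 higher and 7 lower. The median of the threonine and aminotransfer pair was then -0.93. The signs of Bhmt2 (-0.14), Gcdh (-0.073), Aass (-0.18), Aldh4a1 (-0.083) and Aspa (-0.02) turned. In that block 3 residual degrees of freedom were left, and 1936 of 41345 probe sets had an unadjusted p under 0.05. Aass also turned to -0.11 after quantile normalization, to -0.018 without THP -/- replicate 2 and WT replicate 5 and to -0.081 without THP -/- replicate 4 and WT replicate 4, and ran from -0.21 to 0.15 with single arrays left out. Aspa ran from -0.090 to 0.52, and the median of N-acyl amino acid enzymes from -0.090 to 0.41, both lowest without THP -/- replicate 3. The causes were not tested. Over the 34 genes followed, the sign was as reported in 802 of 815 values. Part of these values could not turn. Changing the prior, filtering dim probe sets and taking 1 probe set per gene leave each fitted difference as it was. Leaving out WT replicate 6 gives the same differences as batch 1 alone, so that setting is counted again. The count covers direction only, since none of these genes passed in any setting, and sizes moved more. Under the replicate block the branched-chain median was 0.080, the tryptophan median 0.052 and Afmid -1.09. A filter on dim probe sets kept 51 of the 52 genes and gave a tryptophan median of 0.36.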
